A study of Mus musculus with 18 samples.

Results

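The collagen genes of the mouse were followed in preparations labelled as bone marrow mesenchymal cells (BM-MSCs, the marrow cells that form bone, cartilage and fat and support blood formation). Members were all genes on the array whose symbol reads Col, a number, the letter a and a number, which gave 42 of the 19505 genes named there. They were divided into 11 fibrillar collagens, 8 collagens of basement membranes and 23 others. Each collagen had 1 probe set. Col7a1 and Col12a1, the other 2 of 44 such symbols in the RefSeq table, were not analysed here.

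Total RNA of 18 mice was hybridised to 1 array per mouse. The controls were BALB/c mice. NeuT mice, labelled as tumour-bearing at both ages, express an activated form of the rat Erbb2 oncogene (HER2/neu) from a mouse mammary tumour virus promoter, which drives it in the mammary gland. At 12 weeks each mouse model had 5 mice, and at 24 weeks each had 4. Marrow of femurs and tibias was depleted of blood cells with antibody-coated beads, and no treatment is named. Transgene and tumour cannot be told apart as sources of a difference, and age cannot be told apart from a batch that may have followed it. In such bulk RNA, fewer cells of a type and less RNA per cell cannot be told apart either.

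Collagens are triple-helical proteins of the extracellular matrix. Fibrillar collagens, with type I foremost in bone, form the fibres that bear tension. Type IV collagen forms the sheet-like network of basement membranes around vessels, and types XV and XVIII link such membranes to the matrix next to them. The others include collagens that decorate fibrils (types IX, XIV, XVI and related types), the beaded filaments of type VI, the hexagonal networks of types VIII and X, and collagens that span the cell membrane. Osteoblasts and stromal fibroblasts are the best known sources of type I collagen in marrow and bone, and hypertrophic chondrocytes of type X.

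Collagen signals were modest on this array. A median log2 signal of 7.35 was read by 5222 negative control probe sets, with a 95th percentile of 10.46. Of the 42 collagens, 33 lay above the control median of their array in all 18 arrays, 6 did so in some arrays and 3 (Col3a1, Col24a1 and Col6a5) in none. No collagen reached the 95th percentile of the controls in any array. For the 3 dim genes the values compare signals, and the size of a change in transcript level is not known. Signals of different probe sets were not compared with each other.

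The blood-cell and stromal markers give the setting in which these collagens were read. Of 14 stromal markers (such as Lepr, Pdgfrb and Cxcl12) 8 lay above the control median in every array, 3 below it in every array and 1 above the 95th percentile in every array. Of 15 neutrophil markers 9 lay above that percentile in every array, and so did Ptprc, which encodes the depleted antigen CD45 (11.70 to 12.45). The mean signal of the stromal list ran from 8.07 to 8.24 in BALB/c and 8.15 to 8.24 in NeuT mice at 12 weeks, and from 8.07 to 8.18 and 8.21 to 8.47 at 24 weeks. The neutrophil list ran from 11.14 to 11.67 and 11.29 to 12.40 at 12 weeks, and from 11.11 to 11.54 and 11.58 to 12.25 at 24 weeks. The B-cell list ran from 10.83 to 11.05 and 9.48 to 10.92, and from 10.91 to 11.18 and 9.72 to 10.90. At 24 weeks the 2 mouse models thus did not overlap in any of these 3 lists, nor in the T and NK cell list. At 12 weeks they overlapped in these 3 lists but not in the endothelial, erythroid or monocyte and macrophage lists.

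One control array stood apart in every collagen class. In BALB/c 24-week replicate 3 the median deviation from each gene's mean over all arrays was 0.33 for fibrillar, 0.33 for basement membrane and 0.27 for other collagens (log2), and 38 of 42 collagens lay above their mean. Over all genes its median deviation was 0.056. The same array had the lowest negative control median (7.13, against 7.26 to 7.46 in the other 17) and the narrowest interquartile range of gene signals (2.62, against 2.71 to 2.91). Its means of the chondrocyte (7.93), fibroblast and pericyte (8.06) and B-cell lists (11.18) were also the highest of all 18 arrays. The part of these differences in its collagen signals was not tested. The main counts and medians that use the 24-week controls are given with and without it, and so are the values of single genes that it turned in sign or moved by over 1.5 times. BALB/c 24-week replicate 1, which remains in the values without replicate 3, lay to the other side. Its median deviation was -0.12 over all collagens, the lowest of the 18 arrays, and -0.087 over all genes.

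**Figure D1:**
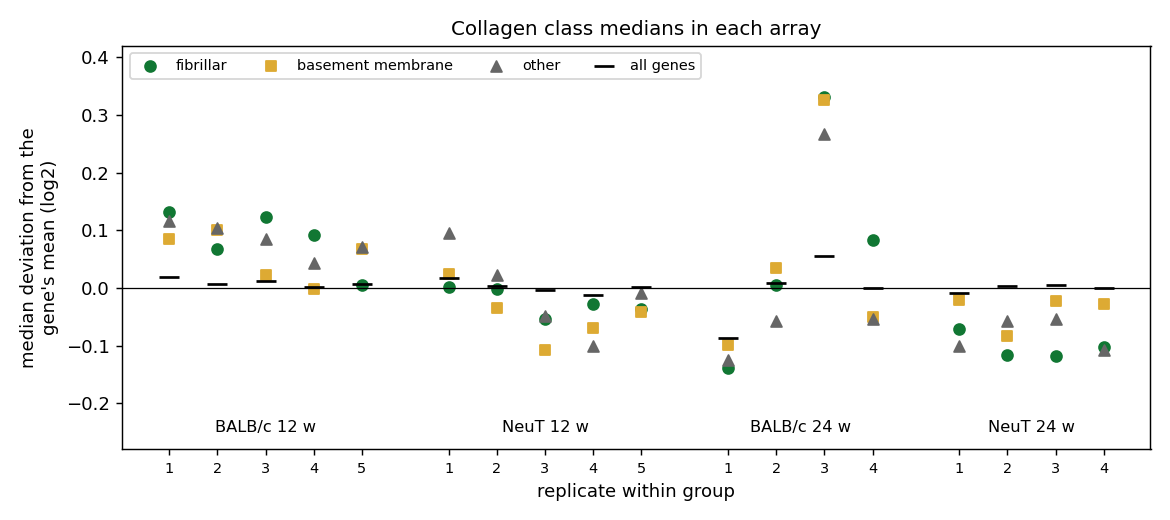
Median deviation of each collagen class from its genes' means over 18 arrays (y axis, log2) in each array (x axis, replicate within group); black dashes are the median over all genes. BALB/c 24-week replicate 3 sits at 0.27 to 0.33 in the 3 classes, above every other array.

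No collagen passed the test between NeuT and BALB/c mice at 12 weeks, and 1, Col5a1, passed at 24 weeks. The test was limma's, with p-values adjusted by Benjamini-Hochberg over all 19505 genes and a threshold of 0.05. At 12 weeks 3.84% of all genes passed in either direction, and 0.687% as lower in NeuT mice. At an unadjusted p under 0.05, 6 collagens were lower and 0 higher, where 9.41% of all genes were lower and 11.6% higher. At 24 weeks 1.40% of all genes passed, and 0.220% as lower. At an unadjusted p under 0.05, 4 collagens were lower and 0 higher there, where 4.02% of all genes were lower and 9.20% higher. Without BALB/c 24-week replicate 3, 2 collagens were lower at that level, beside 2.57% of all genes. None passed after adjustment in that fit, where 0.113% of all genes did.

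Most collagen differences were small and below 0. At 12 weeks 37 of 42 log2 differences (NeuT minus BALB/c) were below 0, beside 57.4% of all genes and 48.5% of the negative controls, and their median was -0.097, beside -0.025 over all genes. By class the medians were -0.092 for fibrillar, -0.073 for basement membrane and -0.10 for other collagens. Leaving out any 1 array kept the median of all 42 between -0.11 and -0.079. A size over 0.2 was reached by 2 collagens at this age.

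At 24 weeks 40 of 42 differences were below 0, beside 50.1% of all genes and 45.1% of the negative controls, with a median of -0.099 beside -0.00014 over all genes. The class medians were -0.14, -0.085 and -0.093. Most of this rested on BALB/c 24-week replicate 3. Without that array 22 of 42 collagens (52.4%) were below 0, beside 40.7% of all genes, with a median of -0.0015 beside 0.024 over all genes, and the class medians were -0.033, -0.0057 and 0.0019. The comparisons at the 2 ages share no mice. With all arrays 35 collagens were below 0 at both ages, the fewest that counts of 37 and 40 out of 42 allow. This number therefore shows no agreement between the ages beyond those counts.

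**Figure D2:**
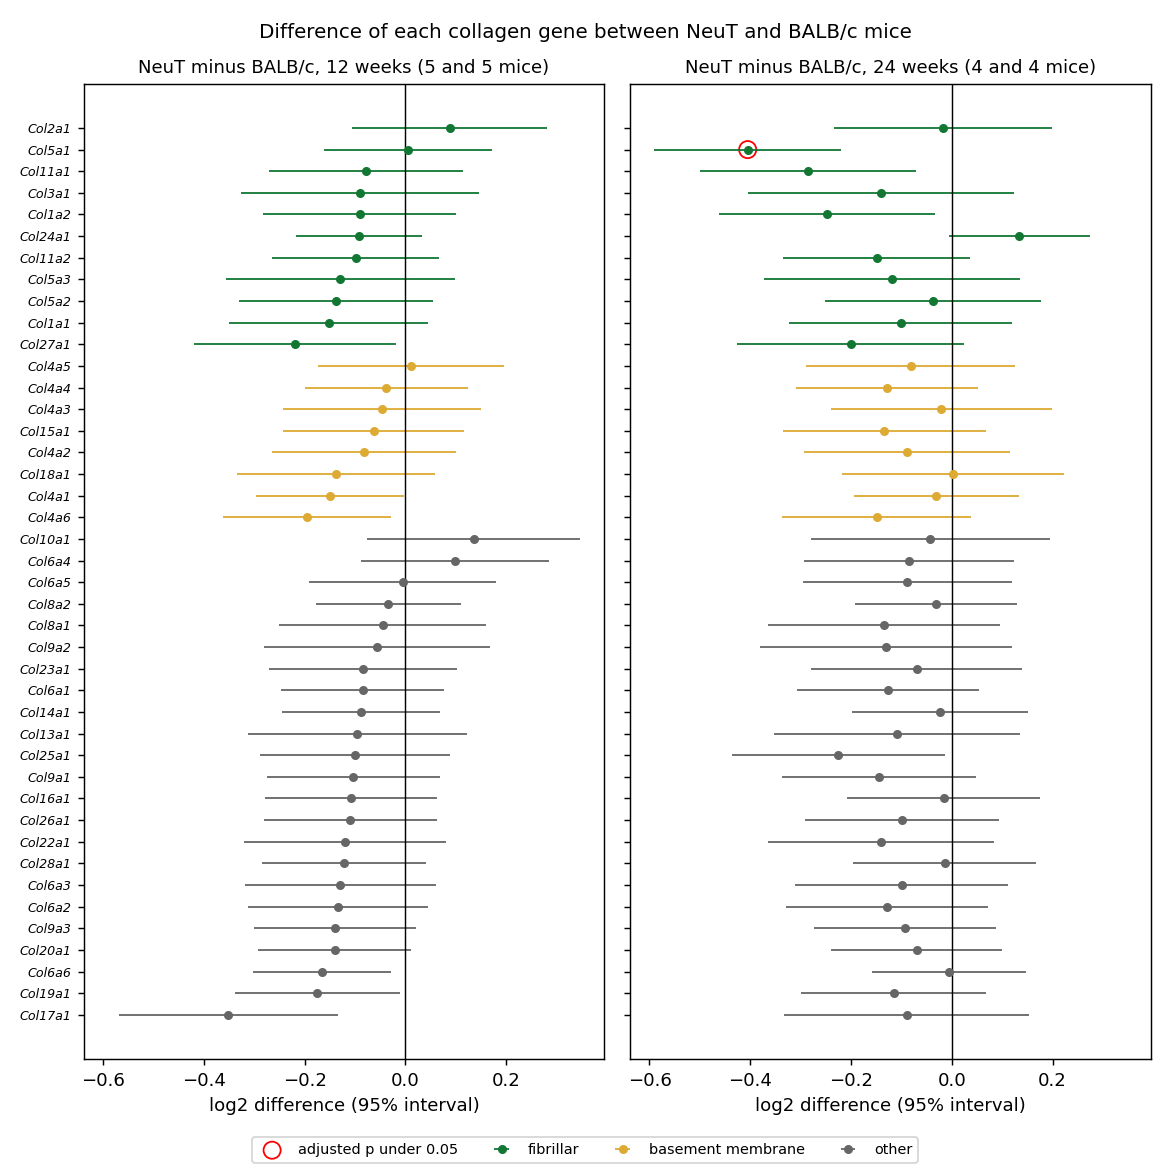
Log2 difference of each of 42 collagen genes (NeuT minus BALB/c, x axis) with its 95% interval from limma, at 12 weeks (left) and 24 weeks (right), ordered within class by the 12-week value. The red ring marks Col5a1 at 24 weeks, the gene past the threshold of 0.05; at 24 weeks 40 of 42 points lie below 0, and 22 without BALB/c 24-week replicate 3.

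Among the fibrillar collagens, Col1a1 and Col1a2 encode the chains of type I collagen, the main protein of bone matrix. Col1a1 at 12 weeks read 10.11, 9.91, 10.12, 10.23 and 9.81 in BALB/c mice and 9.73, 9.83, 9.96, 10.14 and 9.78 in NeuT mice. At 24 weeks it read 9.69, 10.004, 9.92 and 10.14 in BALB/c and 9.89, 9.89, 9.70 and 9.87 in NeuT mice. The groups overlapped at both ages. The log2 differences were -0.15 (95% interval -0.35 to 0.045, adjusted p = 0.368) and -0.10 (-0.32 to 0.12, adjusted p = 0.727), and neither passed limma's test.

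Col1a2 came closer to a separation at 24 weeks. It read 8.66, 8.77, 8.79 and 8.81 in BALB/c and 8.54, 8.51, 8.51 and 8.48 in NeuT mice. The groups did not overlap, and all NeuT arrays were the lower ones, a pattern shown by 1.76% of all genes at this age. The log2 difference was -0.25 ± 0.10 (SE, n = 4 and 4) and missed the threshold (limma, adjusted p = 0.286). It stayed between -0.28 and -0.23 whichever array of that age was left out. At 12 weeks Col1a2 read 8.80, 8.34, 8.86, 8.72 and 8.63 in BALB/c and 8.25, 8.63, 8.71, 8.61 and 8.70 in NeuT mice, with a difference of -0.091 (adjusted p = 0.600).

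Col3a1, the type III collagen of reticular fibres and soft tissue, was under the negative control median in every array. It ran from 6.20 to 6.78 in BALB/c and 6.23 to 6.58 in NeuT mice at 12 weeks, and from 6.05 to 6.83 and 6.18 to 6.40 at 24 weeks. Its differences were -0.091 and -0.14 (limma, adjusted p = 0.680 and 0.673). The 24-week value was -0.016 without BALB/c 24-week replicate 3.

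**Figure D3:**
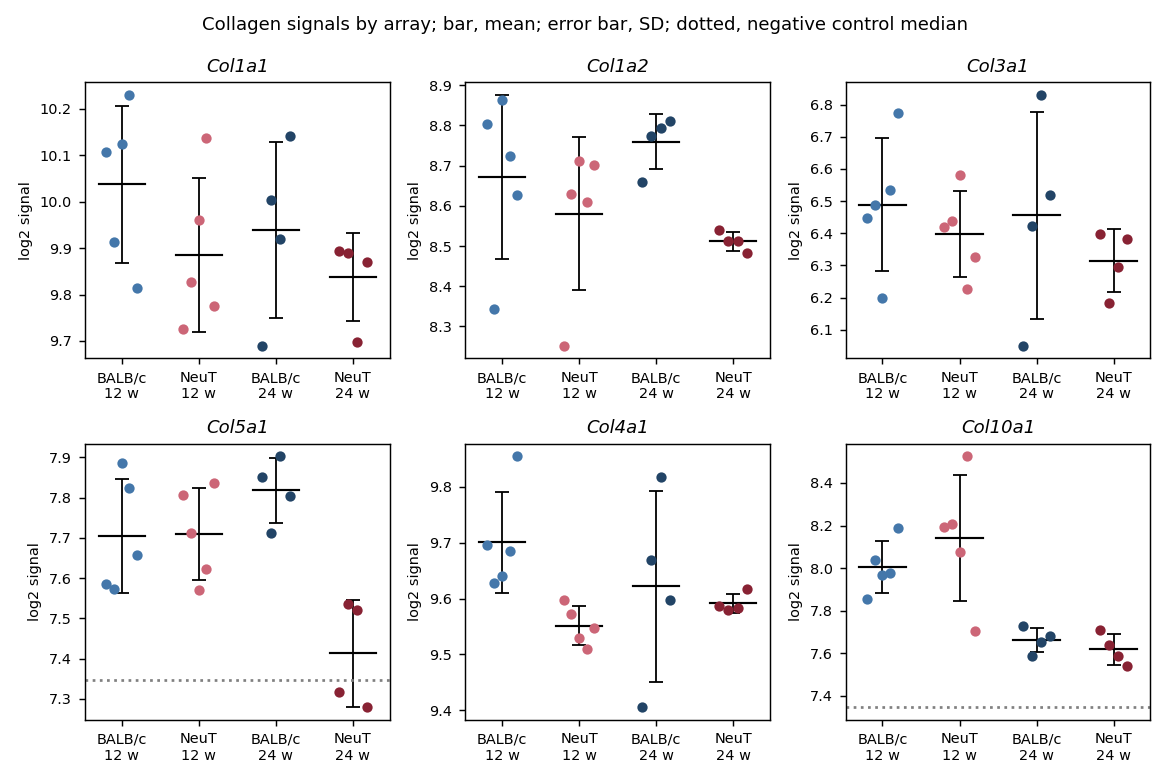
Log2 signal (y axis, a range of its own for each gene) of 6 collagens in the 18 arrays by group; points are mice, bars means and error bars SD, and the dotted line is the negative control median of 7.35 where it falls in range. Col5a1 in NeuT mice of 24 weeks lies below the other groups, and Col10a1 is lower in both groups of 24 weeks than in BALB/c mice of 12 weeks.

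Col5a1, whose chain of type V collagen starts and limits the growth of type I fibrils, was lower in NeuT mice at 24 weeks. It read 7.85, 7.71, 7.90 and 7.80 in BALB/c mice and 7.32, 7.54, 7.52 and 7.28 in NeuT mice. No NeuT array reached the lowest BALB/c array. The mean fell from 7.82 ± 0.081 (SD, n = 4) to 7.41 ± 0.13 (n = 4), a log2 difference of -0.41 ± 0.090 (SE) or 1.32-fold lower (limma, adjusted p = 0.0296). NeuT replicates 1 and 4 lay within 0.1 of the control median of 7.35, so the size of the change is less certain than its interval of -0.59 to -0.22 says.

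The same gene showed no such difference at 12 weeks. It read 7.59, 7.57, 7.89, 7.82 and 7.66 in BALB/c and 7.81, 7.71, 7.57, 7.62 and 7.84 in NeuT mice, with full overlap. The difference was 0.0046 (adjusted p = 0.981). The change of the effect with age was -0.41 and did not pass limma's test (unadjusted p = 0.00248, adjusted p = 0.620), so a difference between the ages is not shown. In NeuT mice Col5a1 at 24 weeks was -0.30 against 12 weeks (adjusted p = 0.143), and these groups did not overlap, as for 2.12% of all genes.

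The call for Col5a1 at 24 weeks was near its threshold. It held in 4 of 8 fits that left out 1 array of that age (adjusted p from 0.0114 to 0.168) and was lost without BALB/c replicate 1 (0.0775), BALB/c replicate 3 (0.0795), NeuT replicate 1 (0.168) or NeuT replicate 4 (0.154). The log2 difference stayed between -0.45 and -0.36 in all 8. Without BALB/c replicate 3 it was -0.38, in a fit that called 0.113% of all genes. With the neutrophil and B-cell list means as covariates it was -0.33 (adjusted p = 0.815), and with cyclic loess -0.37 (0.0537). With only the 2 groups in the fit the adjusted p was 0.118. At 24 weeks the 2 models did not overlap in either list mean, so the covariate fit cannot well tell mouse model from blood-cell content. The share of all genes that it called is not given here. Calls lost in the covariate fit, here and below, are therefore not results about single genes. The other type V genes, Col5a2 and Col5a3, had differences of -0.037 and -0.12 at 24 weeks (adjusted p = 0.911 and 0.720). Without BALB/c replicate 3 both turned in sign, to 0.075 and 0.054.

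The promoter of Col5a1 is shown because it is the collagen that passed between the mouse models. RefSeq (GRCm38.p6) places this stretch, the part of its promoter window upstream of the gene's start, at chr2:27886175-27886380 on the plus strand. Capitals mark GGGCGG, the GC box, searched on both strands, so that CCGCCC marks it on the other.
Col5a1: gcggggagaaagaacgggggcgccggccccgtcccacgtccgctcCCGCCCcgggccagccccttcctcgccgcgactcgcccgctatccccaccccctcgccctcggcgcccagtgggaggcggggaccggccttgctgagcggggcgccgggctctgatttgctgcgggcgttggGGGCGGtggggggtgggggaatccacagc
The stretch is 77.7% G and C and holds 2 GC boxes. Over 37 promoter entries, which matched 34 of the 42 collagens, 56.8% held GGGCGG, beside 32.7% of all 32851 entries. CCAAT was found in 32.4% and 33.8%, and TATAAA in 13.5% and 12.4%. A match is a description of the letters and not of binding.

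Of the other fibrillar collagens, Col11a1, a cartilage fibril chain, had a difference of -0.29 at 24 weeks (limma, adjusted p = 0.199). It read 8.20, 8.41, 8.79 and 8.50 in BALB/c and 8.14, 8.31, 8.20 and 8.09 in NeuT mice, and -0.18 remained without the high BALB/c replicate 3. At 12 weeks it read 8.53, 8.44, 8.42, 8.47 and 8.39 in BALB/c and 8.19, 8.42, 8.24, 8.61 and 8.41 in NeuT mice (difference -0.078). The groups overlapped at both ages.

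Col27a1, a fibrillar collagen of the growth plate, was close in size at both ages, with differences of -0.22 and -0.20 (limma, adjusted p = 0.195 and 0.440). At 12 weeks it read 8.38, 8.49, 8.56, 8.29 and 8.33 in BALB/c and 8.27, 8.15, 8.07, 8.11 and 8.35 in NeuT mice. At 24 weeks it read 8.27, 8.45, 8.87 and 8.36, and 8.27, 8.27, 8.48 and 8.13. The groups overlapped at both ages, and the 24-week value was -0.074 without BALB/c replicate 3.

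Col24a1, a minor fibrillar collagen of developing bone, was the fibrillar gene above 0 at 24 weeks, with all its signals below the negative control median. At 12 weeks it read 6.78, 6.74, 6.60, 6.70 and 6.72 in BALB/c and 6.61, 6.54, 6.64, 6.64 and 6.65 in NeuT mice. At 24 weeks it read 6.45, 6.54, 6.43 and 6.56, and 6.67, 6.59, 6.57 and 6.68. All NeuT arrays were above all BALB/c arrays at 24 weeks, as for 4.95% of all genes, by 0.13 (limma, adjusted p = 0.400), and the 12-week difference was -0.092 (adjusted p = 0.392).

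No basement membrane collagen passed at either age. Col4a1 and Col4a2 encode the chains of the common type IV network. Col4a1 read 9.70, 9.63, 9.64, 9.69 and 9.85 in BALB/c and 9.60, 9.57, 9.53, 9.51 and 9.55 in NeuT mice at 12 weeks. All NeuT arrays were below all BALB/c arrays, as for 2.82% of all genes, and the difference of -0.15 ± 0.071 (SE, n = 5 and 5) missed the threshold (limma, adjusted p = 0.230). Col11a2 and Col6a6 also did not overlap at this age, both lower in NeuT mice.

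At 24 weeks Col4a1 read 9.41, 9.67, 9.82 and 9.60 in BALB/c and 9.59, 9.58, 9.58 and 9.62 in NeuT mice, a difference of -0.030 (adjusted p = 0.904). The BALB/c arrays spread to both sides of the NeuT arrays. Col4a2 ran from 8.44 to 8.59 in BALB/c and 8.16 to 8.68 in NeuT mice at 12 weeks, and from 8.46 to 8.86 and 8.44 to 8.55 at 24 weeks, with differences of -0.082 and -0.089 (limma, adjusted p = 0.625 and 0.743). Without BALB/c replicate 3 the 24-week differences of Col4a1 and Col4a2 were 0.034 and 0.0016.

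Col18a1, whose C-terminal fragment is endostatin, ran from 7.33 to 7.69 in BALB/c and 7.25 to 7.54 in NeuT mice at 12 weeks, and from 7.30 to 7.81 and 7.38 to 7.56 at 24 weeks. Its differences were -0.14 (adjusted p = 0.423) and 0.0017 (adjusted p = 0.996). Without BALB/c replicate 3 the 24-week value was 0.11. Col15a1, the related type XV chain, differed by -0.063 and -0.13, the latter -0.013 without that array.

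Col4a6 had the largest 12-week difference of the basement membrane class, -0.20 (95% interval -0.36 to -0.028, limma, adjusted p = 0.167). It read 8.66, 8.72, 8.73, 8.61 and 8.70 in BALB/c and 8.63, 8.43, 8.37, 8.56 and 8.45 in NeuT mice, so that NeuT replicate 1 reached into the BALB/c range. At 24 weeks the difference was -0.15, and -0.044 without BALB/c replicate 3. Col4a4, a chain of the kidney and inner ear network, differed by -0.038 and -0.13 (adjusted p = 0.812 and 0.556), the latter -0.034 without that array.

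Of the 23 other collagens 21 were below 0 at 12 weeks and 23 at 24 weeks, and none passed. Without BALB/c 24-week replicate 3 the 24-week count was 11 of 23, or 47.8%, beside the 40.7% of all genes. Col17a1, a membrane-spanning collagen of hemidesmosomes, came closest, at 12 weeks. It read 7.39, 7.75, 7.02, 7.51 and 7.42 in BALB/c and 7.20, 6.92, 7.16, 7.01 and 7.05 in NeuT mice. BALB/c replicate 3 was as low as the NeuT arrays, and the other 4 BALB/c arrays were all above them. The difference of -0.35 ± 0.10 (SE) gave an adjusted p of 0.0597 by limma. It passed without BALB/c replicate 3 (-0.45, adjusted p = 0.0124) and with array weights (-0.34, 0.0245). It also passed without BALB/c 24-week replicate 3, which enters the shared estimate of spread (adjusted p = 0.0458, with 6.94% of all genes called). It missed the threshold by more without BALB/c replicate 2 (-0.27, 0.180) and with the blood-cell covariates (-0.24, 0.668). These signals straddled the negative control median, which was exceeded in 5 of 18 arrays. At 24 weeks the difference was -0.090, and -0.054 without BALB/c 24-week replicate 3.

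Col6a6, a chain of type VI beaded filaments, read 7.33, 7.38, 7.43, 7.51 and 7.34 in BALB/c and 7.26, 7.32, 7.23, 7.29 and 7.06 in NeuT mice at 12 weeks. Its signals straddled the negative control median, which was exceeded in 5 of 18 arrays, so the sizes of its differences are uncertain. The difference was -0.17 (limma, adjusted p = 0.151), and at 24 weeks -0.0058, or 0.018 without BALB/c 24-week replicate 3. The widely expressed chains Col6a1, Col6a2 and Col6a3 differed by -0.084, -0.13 and -0.13 at 12 weeks and -0.13, -0.13 and -0.10 at 24 weeks, with no call. Without that array the 24-week values were -0.039, -0.046 and 0.035, so that Col6a3 turned in sign.

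Col19a1, a fibril-associated collagen of muscle and neurons, differed by -0.17 and -0.12 (adjusted p = 0.206 and 0.609), the latter -0.054 without BALB/c 24-week replicate 3. Col20a1, of the same subgroup, differed by -0.14 and -0.070 (adjusted p = 0.273 and 0.757), the latter -0.00064 without it. Col25a1, a membrane-spanning collagen of neurons, differed by -0.10 and -0.23 (adjusted p = 0.549 and 0.334), the latter -0.12 without it. None of these 3 reached a size of 0.2 at 12 weeks.

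The effect of the mouse model was not shown to change with age for any collagen. No collagen passed the test of the difference of effects (limma), and 0.0103% of all genes did. At an unadjusted p under 0.05 there was 1 lower collagen, Col5a1, and 1 higher, Col24a1, beside 6.50% of all genes in either direction. The median difference of effects over the 42 collagens was 0.0035, and 0.085 without BALB/c 24-week replicate 3.

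Between 12 and 24 weeks no collagen passed in BALB/c mice, where 0.579% of all genes did, or in NeuT mice, where 0.0359% did (limma). At an unadjusted p under 0.05 there were 4 collagens in BALB/c mice, beside 15.3% of all genes in either direction, and 2 in NeuT mice, beside 12.6%. All of these were lower at 24 weeks. The groups of the 2 ages did not overlap for Col10a1, Col24a1 and Col6a6 in BALB/c mice, where 3.57% of all genes were lower without overlap. In NeuT mice they did not overlap for Col5a1, Col11a2 and Col23a1, where 2.12% of all genes were. All of these collagens were lower at 24 weeks. The age differences had a median of -0.043 over the collagens in BALB/c mice, with 28 of 42 below 0, beside -0.018 and 55.9% over all genes.

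The BALB/c age values depended on BALB/c 24-week replicate 3. Without it 38 of 42 collagens (90.5%) were lower at 24 weeks, beside 61.5% of all genes, with a median of -0.14 beside -0.045. No collagen passed, where 3.02% of all genes did. At an unadjusted p under 0.05, 15 of 42 collagens were lower, beside 15.2% of all genes. The lowest adjusted p was that of Col6a6 (-0.25, adjusted p = 0.0556, limma), followed by Col23a1 (-0.25) and Col9a3 (-0.22), both at 0.0745. The groups of the 2 ages did not overlap for 12 of 42 collagens, all lower at 24 weeks, beside 10.8% of all genes.

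Col10a1, the network collagen of hypertrophic cartilage, was lower at 24 weeks in both mouse models. It was singled out after its values were seen. At 12 weeks it read 7.86, 8.04, 7.97, 7.98 and 8.19 in BALB/c and 8.19, 8.21, 8.08, 8.53 and 7.71 in NeuT mice. At 24 weeks it read 7.73, 7.59, 7.65 and 7.68 in BALB/c and 7.71, 7.64, 7.59 and 7.54 in NeuT mice. All 24-week arrays lay below all 12-week arrays except NeuT 12-week replicate 5, which overlapped them.

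The difference in Col10a1 between the ages was -0.34 ± 0.11 (SE, adjusted p = 0.119) in BALB/c and -0.52 ± 0.11 (adjusted p = 0.0645) in NeuT mice by limma. Averaged over the models, a contrast added after seeing the data, it was -0.43 ± 0.077 (adjusted p = 0.00578), and it passed in 18 of 18 fits without 1 array (adjusted p from 0.000854 to 0.0163). That averaged contrast called 3.96% of all genes, 1.82% as lower, and no other collagen. Without BALB/c 24-week replicate 3 it called 8.61% of all genes and 4 collagens, all lower: Col10a1 (-0.43), Col23a1 (-0.18, adjusted p = 0.0396), Col6a6 (-0.16, 0.0447) and Col9a3 (-0.15, 0.0498). Between the mouse models Col10a1 differed by 0.14 at 12 weeks and -0.043 at 24 weeks (adjusted p = 0.467 and 0.907).

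RefSeq places Col10a1 within the range of Nt5dc1, and whether the probes tell their transcripts apart is not given in the sources used here. Nt5dc1 had an averaged age difference of 0.094 (adjusted p = 0.329), opposite in sign. The promoter of Col10a1 is shown as that of the collagen called between the ages, at chr10:34389731-34389980 on the plus strand (RefSeq, GRCm38.p6). Capitals mark TATAAA, the TATA box, searched on both strands and found 32 bases upstream of the start.
Col10a1: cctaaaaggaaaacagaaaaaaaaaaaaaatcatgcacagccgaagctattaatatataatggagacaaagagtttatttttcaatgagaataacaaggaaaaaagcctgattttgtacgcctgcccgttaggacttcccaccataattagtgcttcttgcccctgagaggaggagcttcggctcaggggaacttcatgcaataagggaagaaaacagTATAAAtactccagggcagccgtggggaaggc
It is 41.6% G and C, against the 77.7% of the Col5a1 stretch, and holds no GGGCGG or CCAAT.

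Chains that assemble into the same collagen or, for Col1a1 and Col3a1, into the same fibrils were compared across the 18 arrays after group means were removed, in 12 pairs with permutation tests within groups. None of the 12 passed after Benjamini-Hochberg adjustment (lowest adjusted permutation p 0.251 for Pearson's r and 0.116 for Spearman's rho). Col1a1 and Col1a2 gave r = 0.51 (permutation p = 0.0661) and rho = 0.67 (permutation p = 0.00963), and r = 0.50 without the 2 arrays farthest from the median of Col1a1. Col6a1 and Col6a3 gave r = 0.72 (permutation p = 0.0225, adjusted 0.251), and 0.26 without the 2 farthest arrays, on which it rests. Col8a1 and Col8a2 gave 0.70 (permutation p = 0.0419) and 0.32.

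The median r over all 861 pairs of collagens was 0.37, and 0.091 without BALB/c 24-week replicate 3. The median deviation of all collagens was then removed from each array, a step added after seeing the data. The median r was then -0.013 over all pairs and 0.0097 over the 12 chain pairs. The step subtracts the median of the same collagens, so a low median r is built into it. The fall from 0.37 is therefore not a result, and the source of the shared variation was not tested. Col1a1 and Col1a2 had an r of 0.65 after that step and 0.52 without BALB/c 24-week replicate 3. Col4a1 and Col4a2, which start 21 bases apart on opposite strands, had an r of 0.37 (permutation p = 0.293), and -0.0045 without that array.

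**Figure D4:**
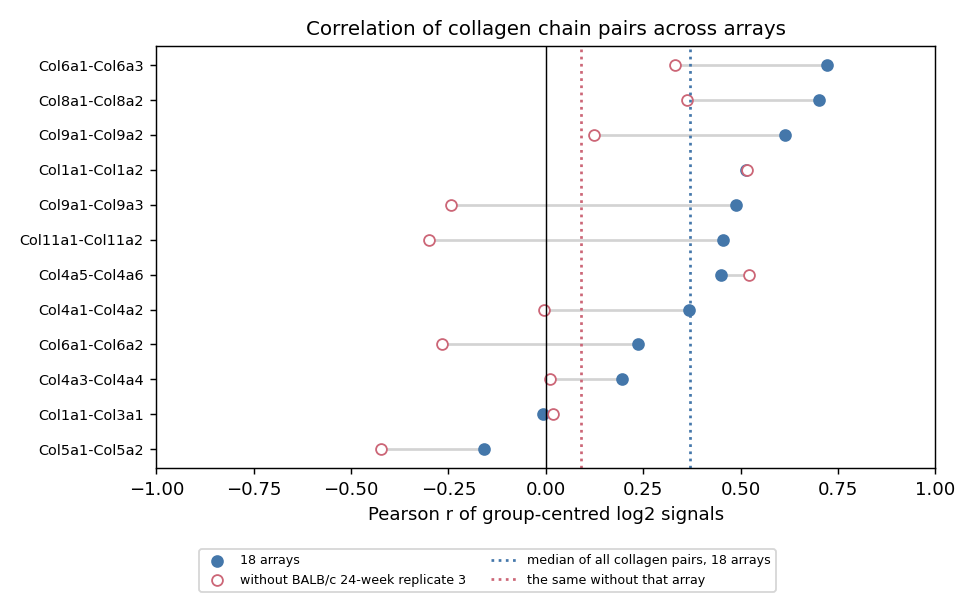
Pearson's r of group-centred log2 signals (x axis) for 12 pairs of collagen chains (y axis), over 18 arrays (filled) and without BALB/c 24-week replicate 3 (open); dotted lines are medians over all 861 collagen pairs, 0.37 and 0.091. Col1a1 and Col1a2 keep an r near 0.5 in both, as do Col4a5 and Col4a6 (0.45 and 0.52). Several other pairs move to 0 or below.

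The genes that build and break down collagen were read beside it. Of 19 measured genes for modification and folding of collagen chains, 1 passed as higher at each age, beside 3.15% of all genes at 12 weeks and 1.18% at 24 weeks. P4ha1, a prolyl 4-hydroxylase subunit that stabilises the triple helix, read 9.09 ± 0.053 (SD, n = 5) in BALB/c and 9.37 ± 0.11 (n = 5) in NeuT mice at 12 weeks, a log2 difference of 0.29 (limma, adjusted p = 0.0419). At 24 weeks its difference was 0.26 (adjusted p = 0.167). Kdelr2, a receptor that returns chaperones to the endoplasmic reticulum, was higher in NeuT mice by 0.46 at 24 weeks (adjusted p = 0.0427) and had 0.23 at 12 weeks (adjusted p = 0.186). The list's medians were -0.032 and 0.12. Leaving out 1 array ended the call for P4ha1 in 9 of 10 fits (all but that without NeuT replicate 5), and for Kdelr2 in 6 of 8 (all but those without BALB/c replicate 2 or NeuT replicate 2). With the blood-cell covariates neither passed (0.19, adjusted p = 0.657, and 0.32, adjusted p = 0.815).

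None of 11 genes for procollagen cleavage and crosslinking passed at either age. Those with the smallest p were Loxl3, a lysyl oxidase-like crosslinking enzyme, with 0.32 at 24 weeks (adjusted p = 0.0988), and Adamts3, a procollagen N-proteinase, with 0.21 at 12 weeks (adjusted p = 0.151). None of 14 collagen-binding matrix genes passed either, with Fn1, which encodes fibronectin, at 0.48 (adjusted p = 0.0555) and Thbs2, thrombospondin 2, at -0.22 (adjusted p = 0.136) at 12 weeks. The medians of the first list were 0.074 at 12 and -0.062 at 24 weeks, and those of the second -0.030 and 0.13. Without BALB/c 24-week replicate 3 the 24-week medians were -0.0046 and 0.075.

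Of 16 collagen-degrading enzymes and inhibitors, 2 were higher in NeuT mice at 12 weeks and 1 at 24 weeks, beside 3.15% and 1.18% of all genes. Mmp8, the neutrophil collagenase, ran from 7.47 to 8.71 in BALB/c and 8.13 to 10.98 in NeuT mice at 12 weeks, 3.50-fold higher (limma, adjusted p = 0.00976), and its 24-week difference of 1.29 missed the threshold (adjusted p = 0.137). Mmp9, gelatinase B, was higher by 1.02 (adjusted p = 0.0183) and 1.07 (adjusted p = 0.0430). Mmp8 is also one of the 15 neutrophil markers, of which 5 were higher and 0 lower at each age. Of all genes 3.15% and 1.18% were higher, and 0.687% and 0.220% lower. With the neutrophil and B-cell list means as covariates the 12-week differences of Mmp8 and Mmp9 were 0.33 and 0.23. Neither passed (adjusted p = 0.745 and 0.781), nor did Mmp9 at 24 weeks (0.16, adjusted p = 0.909). Mmp8 is part of that neutrophil list mean, so some of its fall is built into the fit. The call for Mmp8 held without any 1 array. That for Mmp9 ended at 12 weeks without BALB/c replicate 1 or NeuT replicate 4, and at 24 weeks in 6 of 8 fits, all but those without BALB/c replicate 4 or NeuT replicate 2. The list's medians were 0.021 and -0.032, the latter 0.022 without BALB/c 24-week replicate 3.

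Of 9 collagen receptors, Lair1, an inhibitory receptor of leukocytes, was higher in NeuT mice at 12 weeks by 0.44 (limma, adjusted p = 0.0368), beside 3.15% of all genes. Adgrg1, an adhesion receptor for type III collagen also found on blood stem cells, was lower (log2 difference -0.40, adjusted p = 0.0419), beside 0.687% of all genes. Each of these calls held in 2 of 10 fits without 1 array, those without BALB/c replicate 3 or NeuT replicate 5. With the blood-cell covariates both ended, with Lair1 at 0.14 (adjusted p = 0.791) and Adgrg1 at -0.068 (adjusted p = 0.886). At 24 weeks none of the 9 passed, with Lair1 at 0.44 (adjusted p = 0.104) and Adgrg1 at -0.031 (adjusted p = 0.941), or -0.081 without BALB/c replicate 3. The list's medians were -0.081 and 0.032, the latter -0.037 without that array.

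Markers of cells that make collagen were counted in the same way. None of 11 chondrocyte and 10 fibroblast or pericyte markers passed at either age. Of 9 osteoblast markers Alpl, alkaline phosphatase, was lower in NeuT mice at 12 weeks (-0.41, limma, adjusted p = 0.0116), beside 0.687% of all genes. Dmp1 (0.11), Phex (0.11), Ibsp (0.032) and Ifitm5 (0.011) were above 0 at that age, and the other markers of the list below 0. Of 14 stromal markers Vcam1, Igfbp4 and Igfbp5 were higher in NeuT mice at 24 weeks, the age at which Col5a1 was lower, beside 1.18% of all genes. Their differences were 0.47, 0.35 and 0.69 (limma, adjusted p = 0.0233, 0.0487 and 0.0492). Thy1 (-0.28), Foxc1 (-0.077) and Grem1 (-0.014) were below 0 at that age. The stromal list's median was 0.22 with or without BALB/c 24-week replicate 3. Of 11 endothelial markers Cdh5, VE-cadherin, was lower at 12 weeks (-0.54, limma, adjusted p = 0.0150), beside 0.687% of all genes. The endothelial list mean ran from 8.05 to 8.22 in BALB/c and 7.93 to 8.01 in NeuT mice at that age. At 24 weeks it ran from 7.92 to 8.10 and 8.01 to 8.16. Without 1 array these calls held in 10 of 10 fits for Alpl and 8 of 10 for Cdh5 (not without BALB/c replicate 2 or NeuT replicate 4). They held in 4 of 8 for Vcam1, 2 of 8 for Igfbp4 and 1 of 8 for Igfbp5, and in none of these 3 without BALB/c 24-week replicate 3. The fit without that array called 0.113% of all genes at 24 weeks, and the 3 differences in it were 0.46, 0.35 and 0.64. With the blood-cell covariates all 5 calls ended. The log2 differences were then -0.33 for Alpl (adjusted p = 0.549) and -0.28 for Cdh5 (0.653). They were 0.30 for Vcam1 (0.815), 0.20 for Igfbp4 (0.821) and 0.75 for Igfbp5 (0.815). The models did not overlap in either covariate at 24 weeks, and the share of all genes called in this fit is not given. The lost calls are therefore not results about these genes.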

How the data were processed

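Total RNA of 18 bone marrow preparations was measured on 1 array per mouse. The authors deposited log2 signals per probe set. Per the submitters' processing notes RMA and the Transcriptome Analysis Console were used; the sources used here state neither versions nor genome build. Of 29129 probe sets 19572 had 1 gene symbol. For the 55 genes with several, that with the highest mean was kept, leaving 19505 genes.

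A mean per group was fitted with limma 3.58.1 in R 4.3.3. Tests were two-sided, with Benjamini-Hochberg adjustment over all genes. Values per array are given for collagens past the threshold, the 5 smallest p per class at either age, and 6 set genes; of related lists, up to 4 called genes or else 2 by p. Members, lists and tests were chosen with earlier results of these data known. Correlations used 100000 permutations. The fit was tested on simulated data. The number of arrays limits the precision. Alternatives were normalizations, a dim-gene filter, probe set means, class membership, moderation, array weights, 2-group fits, blood-cell covariates and leaving out each array (for related genes chosen after seeing the data). Figures used matplotlib.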

Additional observations from a re-analysis of the deposited data

Results flagged for a closer look

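In groups of 4 or 5 arrays, chance sets a sample apart in about 1 in 20 groups, and 5 of 88 groups checked had such a sample. Col17a1 read 6.84 in BALB/c 24-week replicate 1, below 7.18 to 7.25 in the other arrays of its group. Col19a1 read 8.02 in BALB/c 24-week replicate 3, the array that was high in every collagen class, above 7.76 to 7.78 in the others. Col1a1 read 9.70 in NeuT 24-week replicate 3, below 9.87 to 9.89. Col1a2 read 8.25 in NeuT 12-week replicate 1, below 8.61 to 8.71. The basement membrane class median was -0.083 in NeuT 24-week replicate 2, below -0.028 to -0.020.

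Col24a1 was marked because every NeuT array lay below the BALB/c mean at 12 weeks and above it at 24 weeks. Its difference of effects was 0.23 (log2; limma, unadjusted p = 0.0203, adjusted p = 0.724).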

How the results depend on the processing

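No called value changed its sign under any alternative run. No paired analysis was possible because the replicates are different mice that share no number in the labels. For 1 NeuT 12-week sample the title and the description give different mouse IDs. Its group and age are the same in both, so it was kept. At 12 weeks array weights called 2 collagens, Col17a1 and Col4a6, and the count was 0 to 1 without 1 array. At 24 weeks the count was 0 with cyclic loess, with only the 2 groups compared and with the blood-cell covariates, and 0 to 1 without 1 array. Array weights called 5 collagens between ages in BALB/c mice, 1 in NeuT mice and 6 for the averaged contrast. In NeuT mice the covariates called 1, Col10a1, and the count without 1 array was 0 to 1. For the averaged contrast it was 1 to 4, with 4 without BALB/c 24-week replicate 3 and 2 without NeuT 12-week replicate 5. Except without BALB/c 24-week replicate 3, the shares of all genes called in these alternative fits are not given here. Counts from such fits are therefore not results about the collagens. Without 1 array the 24-week median (NeuT minus BALB/c) was -0.15 to -0.0015 over all collagens, -0.19 to -0.033 for fibrillar and -0.15 to 0.0019 for others. The median difference of effects was -0.073 to 0.066 for fibrillar and -0.048 to 0.12 for others. The BALB/c age median was -0.14 to 0.0079 over all, -0.092 to 0.10 for fibrillar and -0.16 to -0.025 for others. In the 24-week comparison the highest, and in the BALB/c age comparison the lowest, of these values came without BALB/c 24-week replicate 3. The causes were not tested. Signals near the negative controls limit what can be said of Col3a1, Col24a1, Col6a5, Col17a1, Col6a6, Col4a3 and Col4a5.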
